A study of Mus musculus with 6 samples.

Results

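Fragments of the leucine tRNA with anticodon TAA (Leu-TAA) were examined in mouse brain at 22 and 3 months of age. A fragment is counted under a tDR ID, the identifier of 1 tRNA-derived small RNA, and each ID lists the tRNAs it can come from, its parents. An ID was taken as Leu-TAA when every parent name was a Leu-TAA tRNA and at least 1 parent was a mature tRNA. This gave 9 of the 591 IDs in the deposited table. All 9 have a single parent, Leu-TAA-2-1 for 6 IDs and Leu-TAA-1-1 for 3, and 0 have a precursor parent.

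The samples were C57BL/6 brains, 3 libraries at 22 months and 3 libraries at 3 months. The labels name no treatment, transgene or mutation at either age, and do not say whether a library is 1 animal or a pool, so p-values describe the spread between these libraries. The series asks how small RNAs cut from tRNAs differ between aged and young brain. The table holds tRNA fragments and no cell type or brain markers, so the tissue label could not be checked here. In bulk tissue, fewer cells of a type and less fragment per cell cannot be told apart.

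Transfer RNAs carry amino acids to the ribosome and read codons through the anticodon. Leu-TAA reads the leucine codon UUA, Leu-CAA reads UUG, and the leucine tRNAs with anticodons AAG, CAG and TAG read the leucine codons that begin with CU. Leucine tRNAs belong to the class with a long variable arm, the loop between the anticodon arm and the T arm. Cells cut mature tRNAs with ribonucleases such as angiogenin, mainly in exposed loops, and the resulting pieces have been linked to stress and to the control of translation.

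The sequences of both parents are given because they show what these tRNAs have in common and what keeps them apart. They are the mature tRNAs of the deposited table, written as DNA from 5′ to 3′ with the final CCA, and capitals mark the positions at which they differ.
Leu-TAA-2-1: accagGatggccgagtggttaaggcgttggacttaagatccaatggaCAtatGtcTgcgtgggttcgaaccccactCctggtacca
Leu-TAA-1-1: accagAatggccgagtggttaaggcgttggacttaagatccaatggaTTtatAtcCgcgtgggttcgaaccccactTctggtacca

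Both are 86 nt long and 93.0% identical, with the anticodon TAA at positions 34 to 36 counted from the 5′ end. Going from Leu-TAA-2-1 to Leu-TAA-1-1 the 6 differences are G6A, C48T, A49T, G53A, T56C and C77T. Positions 6 and 77 face each other in the acceptor stem, and the pair is Watson-Crick in both tRNAs, so the stem is kept. The longest stretch without a difference runs from position 7 to 47, 41 nt that hold the anticodon. The longest stretch that Leu-TAA-2-1 shares with any tRNA outside Leu-TAA is 26 nt, from position 8 to 33, with Ser-CGA-2-1, and no more than 17 nt are shared with a leucine tRNA of another anticodon. The table gives parents and not the fragments themselves, so the place of each fragment in its tRNA was not determined.

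The table also holds 3 parents named Leu-TAA-5-1, Leu-TAA-5-2 and Leu-TAA-5-3, of 75 nt. The first 33 nt of Leu-TAA-5-1 are those of Pro-AGG-2-1, a proline tRNA. The 2 IDs with these parents, AS-tDR-004874 and AS-tDR-011158, also list proline tRNAs, 26 and 5 names, and were left out. AS-tDR-004874 had 37, 25 and 0 tags at 22 months and 32, 21 and 26 tags at 3 months. RefSeq (GRCm38.p6, the assembly that mm10 corresponds to) lists 3 Leu-TAA genes, n-TLtaa3 at chr10:12922571-12922653, n-TLtaa2 at chr13:21848022-21848104 and n-TLtaa4 at chr19:12011086-12011168. The deposited table does not say which gene is Leu-TAA-2-1 or Leu-TAA-1-1.

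Listed tags, the reads assigned to tRNA fragments in the table, totalled 71121 to 96130 per library at 22 months and 44156 to 57425 at 3 months. Depth thus differed with age, and its part in the results was not tested. Each library lists values from a minimum upward, 13 to 17 tags at 22 months and 8 to 11 at 3 months, and a 0 stands for a level below it. Levels are in CPM, listed tags scaled to a common library size, after TMM scaling, a correction for libraries of unequal make-up. The library of 22 month replicate 3 stood apart. Its Spearman correlation across all IDs was 0.749 and 0.824 with the other 22 month libraries, against 0.908 between replicates 1 and 2, and the Leu-TAA results it bears on are also given without it. Its part in them beyond those values was not tested.

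Leu-TAA fragments made up more of the listed tags in aged brain. They numbered 2804, 2461 and 2804 tags at 22 months, and 912, 934 and 950 tags at 3 months. As a share of listed tags this was 3.94%, 2.56% and 3.31% at 22 months, with 95% Wilson intervals of 3.8 to 4.09, 2.46 to 2.66 and 3.19 to 3.43. At 3 months it was 1.59%, 2.07% and 2.15%, with intervals of 1.49 to 1.69, 1.94 to 2.21 and 2.02 to 2.29, and these intervals cover counting error only. All 3 aged libraries lay above all 3 young ones, and the nearest pair, 22 month replicate 2 and 3 month replicate 3, did not have overlapping intervals. The mean share was 3.27% ± 0.692 in aged brain and 1.94% ± 0.304 in young brain (SD over 3 libraries). They differed by 1.33 percentage points (exact two-sided permutation test, p = 0.1, the smallest that 3 against 3 allows). Without 22 month replicate 3 the difference was 1.31 points.

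On the TMM scale the summed Leu-TAA level was 37194, 29603 and 38369.9 CPM at 22 months and 14347, 19996 and 19453 CPM at 3 months. The lowest aged library was well above the highest young one. The log2 difference was 0.97 (SE 0.24), a 1.95-fold higher level at 22 months, which did not pass the threshold of 0.05 (edgeR quasi-likelihood test, adjusted p = 0.0613). It was 0.96 without 22 month replicate 3 (edgeR, adjusted p = 0.0723) and 0.76 with library size as the only scaling (edgeR, adjusted p = 0.141). The median of all tested IDs was itself shifted, to -0.16 with TMM and -0.35 with library size alone. Relative to that median, the median of the 6 Leu-TAA-2-1 IDs was higher by 1.05 and 1.04 on the log2 scale under these scalings.

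**Figure D1:**
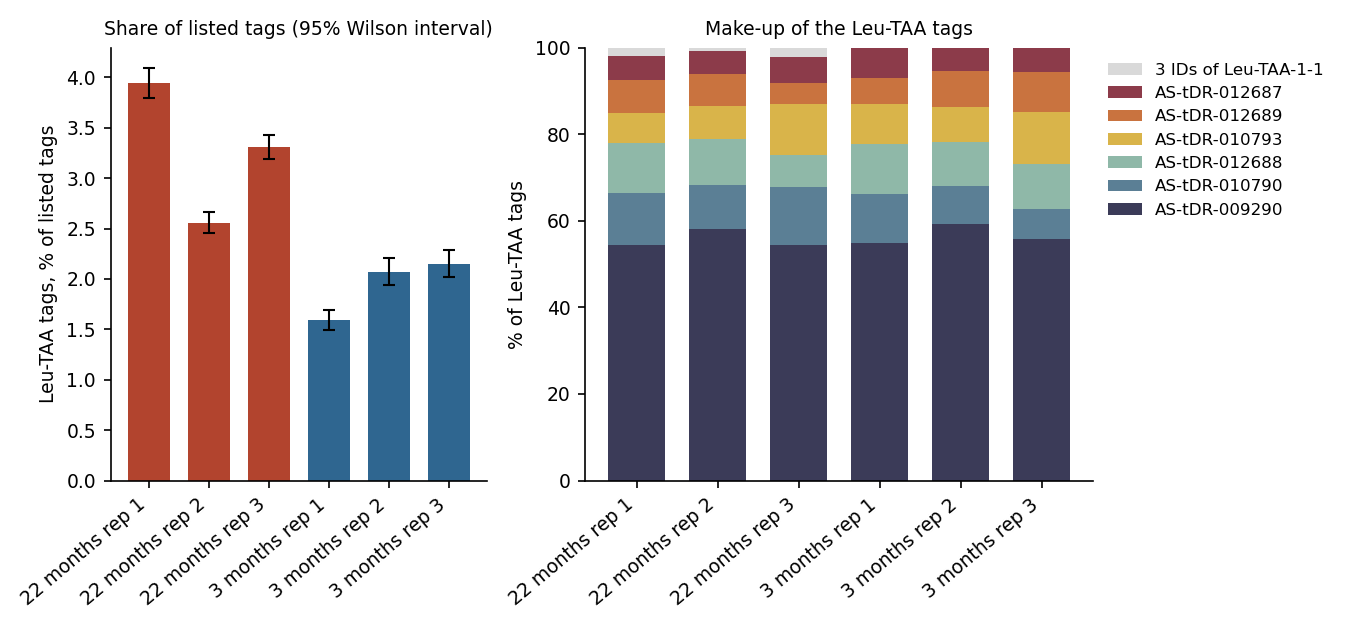
The left plot shows Leu-TAA tags as a percentage of all listed tags in each library, with 95% Wilson intervals as error bars. The right plot shows how the Leu-TAA tags of each library divide among its IDs, in percent. The 22 month bars on the left lie between 2.56% and 3.94% and the 3 month bars between 1.59% and 2.15%, while AS-tDR-009290 takes between 54.4% and 59.3% of the Leu-TAA tags in every library.

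Among single fragments, 2 of the 7 Leu-TAA IDs tested rose at 22 months, beside 4.78% of the 439 IDs tested in the whole table, and 0 fell, beside 1.82% (edgeR, p under 0.05 after Benjamini-Hochberg adjustment). Both IDs that rose have the parent Leu-TAA-2-1, whose 6 IDs were above 0 in all 6 libraries. At an unadjusted p under 0.05, 4 of these 6 were higher and 0 lower, beside 15.7% and 9.79% of the 439 IDs (edgeR). DESeq2 called 2 of the 6 higher and 0 lower, beside 7.52% and 4.1% of the 439 IDs, but not the same pair: it called AS-tDR-009290 and AS-tDR-010790 and not AS-tDR-012687. The 6 IDs had log2 differences between 0.67 and 1.41 with a median of 0.90. The median over the 290 IDs above 0 in all libraries was -0.04. On the TMM scale, every 22 month library exceeded every 3 month library for 5 of these 6 IDs. This held for 22.4% of those 290 IDs and for 19.4% of all IDs tested. Fragments of 1 tRNA can overlap and come from the same molecules, so the 6 IDs are not independent of one another.

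AS-tDR-009290 was the most abundant Leu-TAA fragment and ranked 8 among the 591 IDs by mean CPM. It was at 20223, 17189 and 20922 CPM at 22 months, against 7864, 11865 and 10877 CPM at 3 months. The ages did not overlap, and 3 month replicate 1 was the lowest library. The 22 month mean was 19445 ± 1984 CPM and the 3 month mean 10202 ± 2084 CPM (SD over 3 libraries), and the log2 difference was 0.93 (SE 0.23). This did not pass over all IDs (edgeR, adjusted p = 0.058; between 0.0757 and 0.158 with 1 library left out). It did pass with DESeq2 (adjusted p = 0.0154), with edgeR on the IDs above 0 in all libraries (adjusted p = 0.037) and with edgeR after each 0 was replaced by a count just under the listing minimum (adjusted p = 0.0434). It did not pass in edgeR with library size only (adjusted p = 0.144) or with scaling to the smallest listed count (adjusted p = 0.157). Nor did it with a replicate block (edgeR, adjusted p = 0.232) or with no filter on low counts (edgeR, adjusted p = 0.0897).

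AS-tDR-010790 rose and showed the highest difference of the 6. It was at 4485, 3043 and 5090.2 CPM at 22 months, against 1636, 1756 and 1352 CPM at 3 months. The aged libraries were spread more widely than the young ones, with 22 month replicate 2 the lowest of them, and still lay above every young library. The 22 month mean was 4206 ± 1052 CPM and the 3 month mean 1581 ± 208 CPM (SD over 3 libraries), which is 2.66-fold higher at 22 months (log2 difference 1.41, SE 0.25; edgeR, adjusted p = 0.0491).

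AS-tDR-012687, the least abundant of the 6, was the other ID that rose. Its levels were 2136, 1612 and 2285 CPM at 22 months, and 991, 1071 and 1065 CPM at 3 months. The young libraries lay close together, with an SD of 44.7 CPM around a mean of 1042, and all aged libraries were above them. The log2 difference was 0.95 (SE 0.20; edgeR, adjusted p = 0.0491). The call was lost with DESeq2 (adjusted p = 0.093) and with any 1 library left out (edgeR, adjusted p between 0.0567 and 0.155).

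These calls were close to the threshold. With 22 month replicate 2 left out, 1 Leu-TAA ID, AS-tDR-010790, passed (edgeR, adjusted p = 0.0443), beside 1.81% of the 498 IDs tested without that library. With any one of 22 month replicates 1 and 3 or 3 month replicates 1, 2 and 3 left out, 0 passed. The same held with library size as the only scaling. In these fits 0 IDs of the whole table rose, except 4 without 22 month replicate 3. Where more passed, more of the whole table did too. Among IDs above 0 in all libraries 4 Leu-TAA IDs passed, beside 15.2% of the 290. With each 0 replaced, 4 of the 6 Leu-TAA-2-1 IDs passed, beside 12.1% of the 439. AS-tDR-015094 of Leu-TAA-1-1 passed there too, but the filter kept it for its 22 month values alone. The 6 IDs of Leu-TAA-2-1 kept a positive log2 difference in each of the 13 alternative fits, between 0.41 and 1.60.

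The remaining 3 fragments of Leu-TAA-2-1 did not pass. AS-tDR-012688 was at 4286, 3152 and 2860 CPM at 22 months, against 1651, 2035 and 1987 CPM at 3 months (log2 difference 0.86, SE 0.22; edgeR, adjusted p = 0.0623). The ages did not overlap for this ID. AS-tDR-012689 was at 2826, 2129 and 1888 CPM at 22 months, against 865 and 1649 CPM in 3 month replicates 1 and 2 and 1803 CPM in replicate 3 (log2 difference 0.67, SE 0.33; edgeR, adjusted p = 0.265). Its lowest aged library was next to its highest young one, so the ages were barely separated, and only on the TMM scale. It had 138 of 84807 listed tags in 22 month replicate 3, a smaller share than 77 of 45131 in 3 month replicate 2. By share of listed tags the ages thus overlapped.

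AS-tDR-010793 was the ID of this tRNA whose ages overlapped. It was at 2548, 2261 and 4488 CPM at 22 months, against 1337, 1628 and 2376 CPM at 3 months. The aged level was highest in replicate 3, the library that stood apart, and 22 month replicate 2 was below 3 month replicate 3. The log2 difference was 0.80 (SE 0.36; edgeR, adjusted p = 0.222), and 0.51 without 22 month replicate 3 (edgeR, adjusted p = 0.301).

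**Figure D2:**
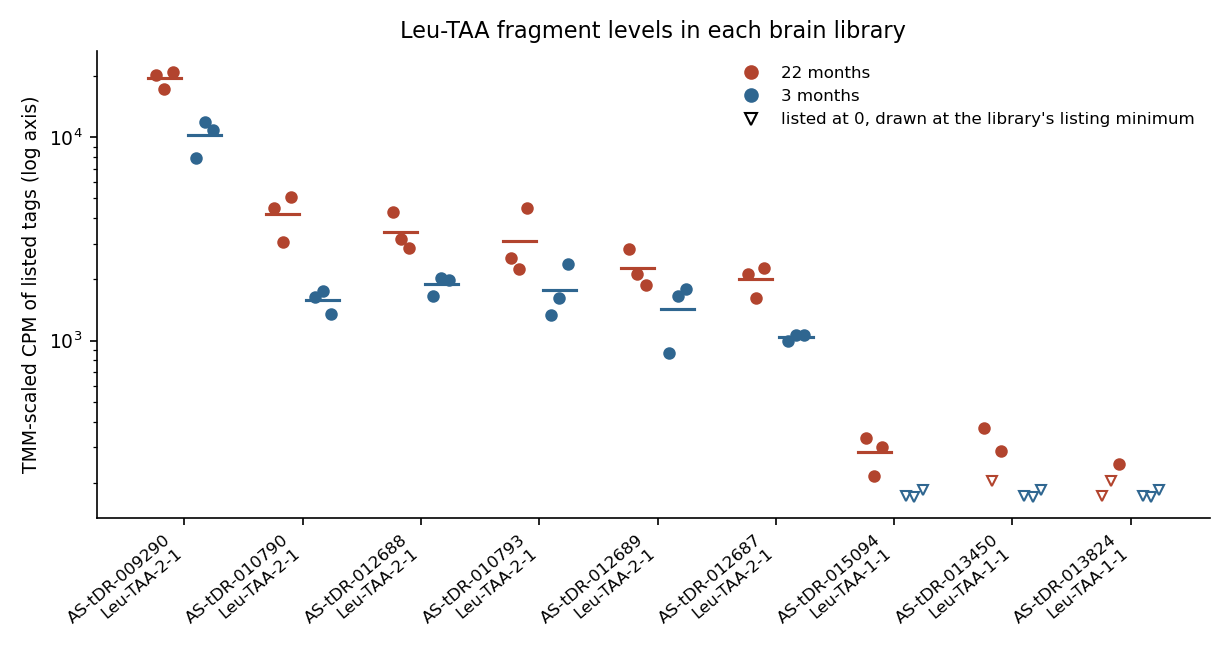
Each point is 1 library, in TMM-scaled CPM of listed tags on a log axis, with 22 month libraries to the left of 3 month libraries for each ID and bars at the means of groups with no 0. Open triangles stand for libraries that list the ID at 0, drawn at the smallest level that library lists. The ages are separated for 5 of the 6 IDs of Leu-TAA-2-1, and the 3 IDs of Leu-TAA-1-1 have filled points at 22 months and none at 3 months.

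Fragments of the sister tRNA Leu-TAA-1-1 were scarce and were listed at 22 months but in no library at 3 months. AS-tDR-015094 had 25, 18 and 22 tags at 22 months, and 0, 0 and 0 in the 3 month libraries. Its aged levels of 332, 217 and 301 CPM averaged 283 CPM, at least 1.61-fold higher than the mean of the smallest levels that the young libraries list, 176 CPM, taken in place of 0. It passed the filter on low counts through its 22 month values alone, and did not pass the test (edgeR, adjusted p = 0.058). It passed with DESeq2 (adjusted p = 0.0193) and with edgeR after each 0 was replaced (adjusted p = 0.0477), and since the filter kept it for its aged values, no support is drawn from these calls. AS-tDR-013450 had 28, 0 and 21 tags at 22 months and AS-tDR-013824 had 0, 0 and 18, with 0 in every 3 month library, and neither reached the filter. Together the 3 IDs made up 53, 18 and 61 tags at 22 months, or 1.89%, 0.731% and 2.18% of the Leu-TAA tags. These counts, 18 to 28 tags where listed, are close to the smallest that the aged libraries list, so a level below the listing minimum at 3 months is not shown to be an absence.

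Within the Leu-TAA tags, no fragment of Leu-TAA-2-1 took a share that was separated between the ages. AS-tDR-009290 took 54.4%, 58.1% and 54.5% of them at 22 months and 54.8%, 59.3% and 55.9% at 3 months. The ages overlapped, with a 22 month mean of 55.6% ± 2.1 and a 3 month mean of 56.7% ± 2.35 (SD over 3 libraries). The difference was -1.03 points, between -2.24 and 0.289 with 1 library left out (exact two-sided permutation test, p = 0.5; adjusted over 6 IDs, 0.75). Out of the tags of the 6 Leu-TAA-2-1 IDs alone it was -0.133 points. AS-tDR-010790 took 11.9% ± 1.5 of the tags in aged brain and 9.04% ± 2.24 in young brain (SD over 3 libraries). This was not called a change in make-up (exact two-sided permutation test, p = 0.2; adjusted over 6 IDs, 0.75). For the other 4 IDs the exact permutation p lay between 0.4 and 0.9, and for all 6 IDs the ages overlapped. These shares need no scaling between libraries. With 3 libraries each, small shifts in make-up could not be detected.

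**Figure D3:**
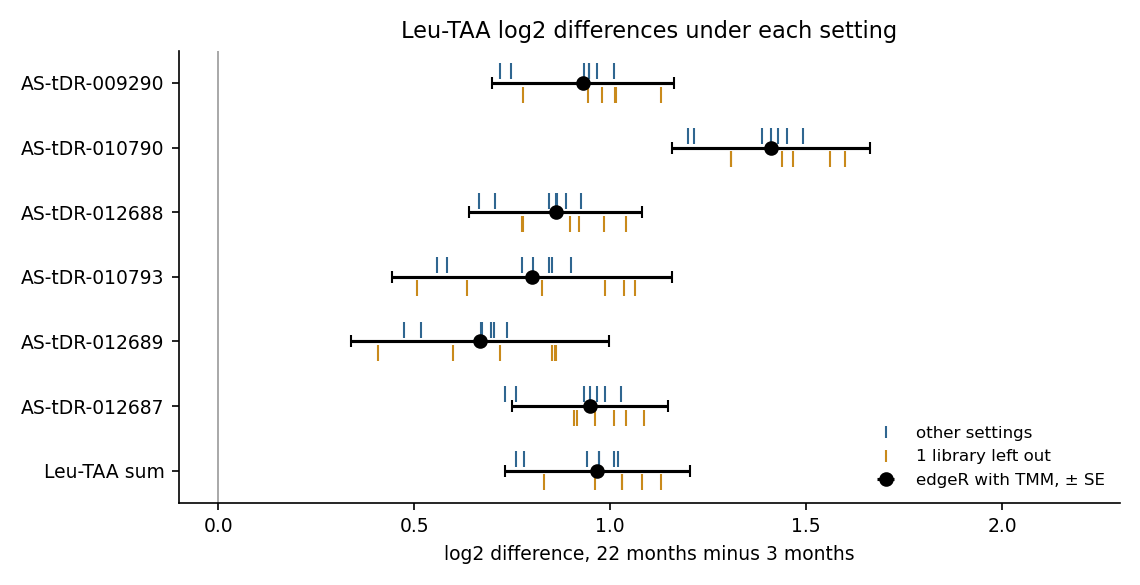
Points give the log2 difference between 22 and 3 months of each Leu-TAA-2-1 ID and of the Leu-TAA sum, with the SE as error bar. Ticks above a point show the alternative settings and ticks below it the fits with 1 library left out. All ticks lie above 0, the lowest at 0.41 for AS-tDR-012689 and the highest at 1.60 for AS-tDR-010790.

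The lists of the other leucine anticodons also had positive median differences. Fragments were grouped by the same rule into 4 lists, which were chosen with earlier results of these data known. Of 13 Leu-CAA IDs tested 5 rose and of 11 Leu-TAG IDs 3 (edgeR, adjusted p under 0.05). Of 6 Leu-AAG IDs 2 rose and of 2 Leu-CAG IDs 0, and 0 fell in any of these lists. Over all 439 IDs tested, 4.78% rose and 1.82% fell. With library size as the only scaling, or with a replicate block, 0 IDs of the whole table rose, so these calls were lost too. In the main fit, log2 differences were positive for 11 of the 13 Leu-CAA and 11 of the 11 Leu-TAG IDs, and for 5 of the 6 Leu-AAG and 2 of the 2 Leu-CAG IDs. They were positive for 6 of the 6 Leu-TAA-2-1 IDs, beside 187 of the 439 IDs tested. AS-tDR-015094 is not counted among the 6, since the filter kept it for its 22 month values alone. The 6 were above 0 in all libraries. The 439 IDs and the Leu-CAA, Leu-AAG and Leu-CAG lists include IDs listed at 0 in some libraries, so the sets are not alike. Of the 8 leucine IDs that list parents of several anticodons, 5 were positive, with a median of 0.13. The median for Leu-TAA was 0.86 with AS-tDR-015094 set to its bound, and 0.90 for the 6 Leu-TAA-2-1 IDs alone. The other lists had medians of 1.17 for Leu-CAA, 0.72 for Leu-TAG, 1.38 for Leu-AAG and 0.84 for Leu-CAG. The median over all 439 IDs tested, with IDs at 0 in 1 age at their bounds, was -0.15. Leu-TAA thus lay within the range of the leucine lists, and the difference between Leu-TAA and these lists was not tested.

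As a share of leucine tags alone, Leu-TAA took 28.2%, 29.9% and 31.0% at 22 months and 23.8%, 29.0% and 25.5% at 3 months. The ages overlapped, with a mean of 29.7% ± 1.39 in aged and 26.1% ± 2.68 in young brain (SD over 3 libraries). The difference of 3.59 points was not called (exact two-sided permutation test, p = 0.2). By mean share of listed tags Leu-TAA stood at 3.27% in aged and 1.94% in young brain. Leu-TAG had 2.65% ± 0.849 in aged and 1.64% ± 0.281 in young brain, and Leu-CAA with 2.27% ± 0.564 in aged and 1.24% ± 0.147 in young brain (SD over 3 libraries). Leu-TAA and Leu-TAG had overlapping ranges of mean ± SD at either age. Another 8 leucine IDs, at 2.23% ± 0.495 in aged and 2.19% ± 0.257 in young brain (SD over 3 libraries), list parents of several anticodons other than Leu-TAA and belong to none of the lists, so the order of the anticodons was not determined.

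**Figure D4:**
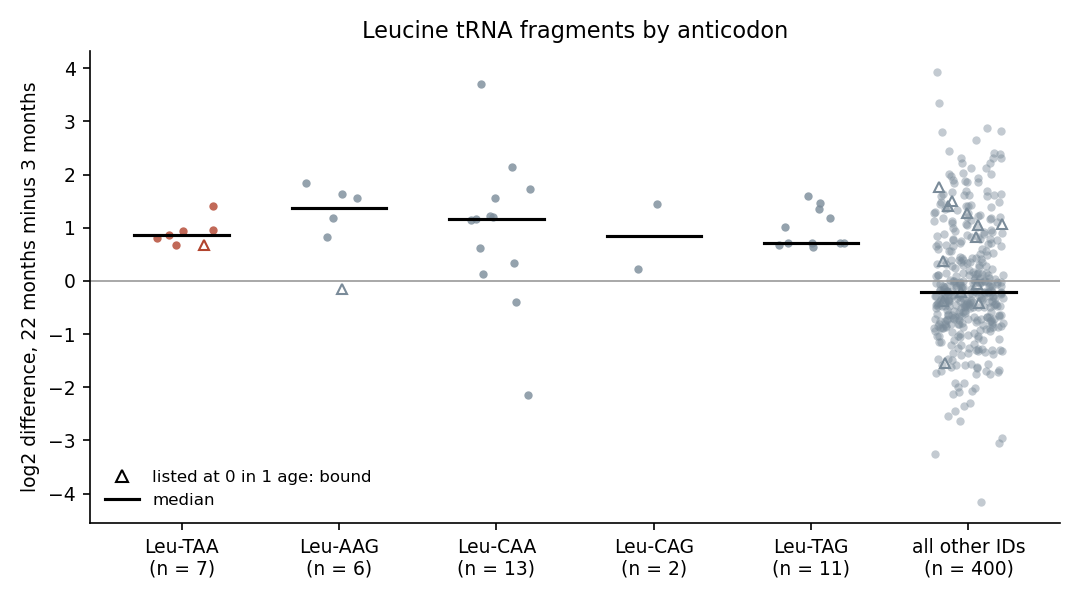
Each point is the log2 difference of 1 tested ID between 22 and 3 months, by leucine anticodon and for the 400 other IDs, and bars mark medians. Triangles stand for IDs listed at 0 in 1 age, drawn at their bound. The 6 Leu-TAA-2-1 points lie above 0. The Leu-TAA median of 0.86 includes AS-tDR-015094, drawn at its bound and kept by the filter for its 22 month values alone.

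The IDs outside Leu-TAA whose levels followed the Leu-TAA sum most closely were sought among 284 IDs above 0 in all libraries, by the root mean square difference in log2 CPM after centring each on its mean over the 6 libraries. The closest was AS-tDR-010081 of Leu-TAG-3-1, with a root mean square difference of 0.13, against a median of 0.67 over the 284. It was at 3848, 2971 and 3872 CPM at 22 months, against 1699, 1863 and 1700.2 CPM at 3 months. Next were AS-tDR-011684 of Leu-CAA-3-1 and AS-tDR-011563, listed under a precursor of Ala-CGC, both at 0.18. Their log2 differences were 1.21 and 0.79. The measure includes the difference between the ages, so it does not describe variation within an age alone.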

How the data were processed

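Small RNA from mouse brain was sequenced as single reads. The submitters' processing notes name FastQC, cutadapt, Novoalign and the build mm10. For the counting program and the source of the tDR IDs nothing is stated in the sources read. The deposited values are tag counts per ID, per the file headers, listed from a minimum upward. The title calls the table normalized, but the values are whole numbers with unequal library totals and were treated as raw counts. Counts repeat on each parent's line, so each ID was used once. Columns named Age and WT were read as 22 and 3 months, and their numbers as replicate numbers.

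All 591 IDs entered edgeR 4.0.16 under R 4.3.3 (filterByExpr with a minimum count of 10, TMM, quasi-likelihood test without a replicate term), and Benjamini-Hochberg adjustment ran over the 439 IDs kept. For the Leu-TAA sum, the 9 IDs were replaced by 1 row with the same scaling. Each SE was derived from the log2 difference and the F statistic. The fit was tested on simulated data. No 2 libraries of an age agreed within counting noise (chi-square over its degrees of freedom, 6.6 to 59.65). DESeq2 1.42.0, other scalings and filters, a replicate block and leaving out each library were alternatives. The sum over Leu-TAA-2-1 alone was added after seeing the data. Members, lists and tests were chosen with earlier results of these data known. Every Leu-TAA ID is named, and outside it the 3 IDs closest to the sum and the 2 IDs left out because they also list proline tRNAs. Plots were drawn with matplotlib 3.10.9.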

Additional observations from a re-analysis of the deposited data

How the results depend on the processing

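Leu-TAA IDs that rose numbered 2, beside 4.78% of the 439 IDs tested. The count was 0 with library size only, with scaling to the smallest listed count, with no filter on low counts and with a replicate block. It was 4 among IDs above 0 in all 6 libraries, beside 15.2% of the 290. With each 0 replaced by a count just under the library's listing minimum it was 5, beside 12.1% of the 439. It was 1 without 22 month replicate 2, beside 1.81% of the 498 tested, and 0 without any other library. The cause was not tested. The 5 include AS-tDR-015094, at 0 in all 3 month libraries. Over the settings with 0, the edgeR adjusted p of AS-tDR-010790 lay between 0.0567 and 0.191, and in all of them but 1 (without 22 month replicate 3, 4 IDs) 0 IDs of the whole table rose. The summed log2 difference of 0.97 passed with DESeq2 (1.01, adjusted p = 0.00805) and when sums of all anticodons were fitted (1.02, edgeR adjusted p = 0.0245), was 0.94 for Leu-TAA-2-1 alone (edgeR adjusted p = 0.0596) and lay between 0.83 and 1.13 with 1 library left out. The replicate block gave 0.97 (edgeR adjusted p = 0.243). Same-numbered libraries were not treated as pairs, since the labels state no pairing. Their deviations from the mean of their age correlated at -0.459, 0.0366 and -0.341. With 3 libraries per age, these values cannot decide whether the libraries were paired. The difference in the share of AS-tDR-009290 within Leu-TAA, -1.03 points, turned to 0.289 without 3 month replicate 2 and was otherwise down to -2.24. Out of the tags of the Leu-TAA IDs above 0 in all libraries it was -0.133 points. The other directions were kept. The share of listed tags differed by 0.997 to 1.69 points with 1 library left out. The median log2 difference of the 6 Leu-TAA-2-1 IDs was 0.69 to 1.01 under all alternatives. Over all tested Leu-TAA IDs it was 0.72 to 1.08. No support is drawn from that range, since most of these fits hold Leu-TAA-1-1 IDs kept for their 22 month values alone. Counts near the listing minimum, from 8 tags, limit what can be said of Leu-TAA-1-1.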
